A study of Mus musculus with 10 samples.

Results

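Ada, Nt5e, Slc28a1, Slc28a2, Enpp3, Xdh and Pnp are 7 of the 35275 genes listed by symbol in the expression table, and they were chosen by name for their place in purine breakdown and nucleoside uptake. All 7 were found and all 7 passed the filter on low values. They are known as genes whose RNA is highest near the villus tip, but the libraries hold whole jejunal epithelium, so no value here gives a position along the villus. The RNA of jejunal epithelial cells was sequenced from 10 mice, with 1 library from each mouse.

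All mice were C57BL/6, labelled as adult males, and carried VillinCreERT2 with MYO5Bflox/flox, which places a tamoxifen-dependent Cre recombinase under the villin promoter of intestinal epithelial cells and floxes the gene of the motor protein myosin Vb. The control mice (mice 2, 4 and 5) received corn oil and were not induced. The MYO5B-knockout mice, called knockout mice from here on (mice 3, 5, 6 and 7), received 2 mg of tamoxifen and then a vehicle of BSA in PBS. The LPA-treated mice, which are knockout mice as well (mice 1, 4 and 5), received 2 mg of tamoxifen and then 3 mg/kg of lysophosphatidic acid, a signaling lipid, by intraperitoneal injection. Cells of every group were collected on day 4. Tamoxifen itself differed between the control and both other groups, and no vehicle of BSA or LPA is named for control mice. The part of these treatments and that of the deletion cannot be told apart, and the effect of LPA was measured only in mice with the deletion. The label text of LPA-treated mouse 1 names both LPA and vehicle, and the mouse was grouped by its title.

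Purine nucleotides outside the cell are taken apart step by step. Ectoenzymes on the cell surface cut ATP and other nucleotides to AMP and AMP to adenosine, concentrative transporters carry the nucleosides into the enterocyte with sodium, and deaminase, phosphorylase and oxidase steps inside the cell turn them into hypoxanthine, xanthine and finally urate. The small intestine receives large amounts of nucleic acid from food and shed cells, and its mature enterocytes are a classical site of adenosine deaminase and xanthine oxidoreductase.

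The depth ran from 10949420 to 24470409 reads on genes. Only 12242 genes had a read in control mouse 2 and 12601 in knockout mouse 3, against 17309 to 18267 in the other 8 libraries, and the mitochondrial share of reads was 17.4% and 18.05% in that pair against 1.98% to 3.50% elsewhere. Against the labelled sex, Xist lay at 8.41 FPKM (fragment counts scaled to gene length and library size) in knockout mouse 3 and at 15.1 FPKM in LPA-treated mouse 1, and neither had a read on 4 Y-linked genes. Myo5b, the targeted gene, lay at 16.5 to 32.0 FPKM in control mice, 10.5 to 13.6 in knockout mice and 10.3 to 11.7 in LPA-treated mice, so every mouse with the deletion lay below every control mouse (adjusted p of 0.115 by limma between knockout and control mice). These values cover the whole gene, not the floxed part alone.

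Slc28a1 and Slc28a2 encode a pair of concentrative nucleoside transporters of the enterocyte, CNT1, which prefers pyrimidine nucleosides, and CNT2, which prefers purine nucleosides. Slc28a1 (ENSMUSG00000025726) lies on chromosome 7 from 81114799 to 81170416 on the forward strand of GRCm38, and Slc28a2 (ENSMUSG00000027219) on chromosome 2 from 122426477 to 122461137, also forward. The stretches before their RefSeq transcription starts (GRCm38.p6, 250 bases each, chr7:81114549-81114798 and chr2:122426185-122426434, forward strand) are shown because the levels of this pair of related genes lay far apart in mice with the deletion. Capitals mark the motif matches found in them.

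Slc28a1: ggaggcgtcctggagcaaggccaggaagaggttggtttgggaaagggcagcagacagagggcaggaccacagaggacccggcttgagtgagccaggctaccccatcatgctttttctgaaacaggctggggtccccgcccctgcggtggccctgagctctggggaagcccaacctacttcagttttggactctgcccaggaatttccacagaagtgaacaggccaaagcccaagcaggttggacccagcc
Slc28a2: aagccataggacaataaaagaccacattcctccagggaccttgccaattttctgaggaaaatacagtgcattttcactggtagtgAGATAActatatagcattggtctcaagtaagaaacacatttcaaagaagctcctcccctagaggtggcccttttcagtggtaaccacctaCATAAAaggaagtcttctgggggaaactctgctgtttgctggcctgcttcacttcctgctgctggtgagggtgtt

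The stretch before Slc28a1 was 60.4% G and C and that before Slc28a2 was 45.2%. On both strands, 7 short motifs were searched. TATAAA is the core of the TATA box. CAAAGT is the core of sites of HNF4, a factor of enterocytes, and CAAAGTCCA a longer form that contains it. The GATA factors bind TGATAA or else AGATAA, the intestinal factor CDX2 binds TTTATG, and CACGTG is the E-box. Slc28a2 held AGATAA at -165 from the start and TTTATG on the reverse strand at -75 (printed as its reverse complement, CATAAA), which 9.99% and 10.8% of all 32851 RefSeq stretches of this length also hold. In the Slc28a1 stretch none of the 7 motifs was found. Of the other genes with a RefSeq stretch, Ada held CAAAGT at -235 (12.6% of all stretches), Enpp3 held TATAAA on the reverse strand at -209 (12.4% of all), and Nt5e and Pnp held none. Xdh was not matched. A match describes letters in a window and was not tested for a role.

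Slc28a1 was the member with the lowest level relative to control mice in both knockout groups. Its FPKM was 18.7, 64.8 and 64.3 in control mice 2, 4 and 5. In knockout mice 3, 5, 6 and 7 it was 0.599, 0.840, 8.22 and 4.33. All 4 values lay below the lowest control value, which itself came from a library with few detected genes. Control mice averaged 49.3 ± 26.5 FPKM (SD, n = 3), and knockout mice 3.50 ± 3.58 (n = 4), a ratio of means of 14.1. On the log2(FPKM + 0.1) scale of the main limma tests, which understates the change of genes near 0, the fold change was -4.27 (SE 0.96, 95% interval -6.40 to -2.14). The adjusted p by limma over all genes tested was 0.0511, just outside the threshold of 0.05. With a filter at a mean of 1 FPKM, with a pseudocount of 1, with either other scaling and with edgeR or DESeq2 on the recovered reads the same gene passed, at adjusted p between 0.000185 and 0.0465, and in all 10 fits that left out 1 mouse it did not. The log2 fold change was -4.31 (adjusted p of 0.0592) without control mouse 2 and knockout mouse 3, and -3.72 (adjusted p of 0.0932) without knockout mouse 3 and LPA-treated mouse 1.

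LPA-treated mice 1, 4 and 5 held Slc28a1 at 0.465, 2.33 and 0.259 FPKM, the last of these resting on 10 reads. The groups with and without LPA overlapped, since LPA-treated mouse 4 lay above knockout mice 3 and 5. The mean was 1.02 ± 1.14 FPKM (SD, n = 3), and the log2 fold change of LPA against vehicle was -1.49 (95% interval -3.62 to 0.64, adjusted p of 1.0 by limma). Against control mice the LPA-treated mice were lower in 3 of 3 mice, with a ratio of means of 48.3 and a log2 fold change of -5.76 (SE 1.03, adjusted p of 0.0195 by limma). This was the only adjusted p under 0.05 among the 7 genes in any comparison. It rose to 0.0606 without the libraries of knockout mouse 3 and LPA-treated mouse 1, stood at 0.0159 without the libraries of control mouse 2 and knockout mouse 3, and was above 0.05 when control mouse 4 or 5 or LPA-treated mouse 1 or 5 was left out (0.0762 to 0.101).

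Slc28a2 had higher means than control mice in both knockout groups. In the control mice its FPKM was 26.1, 67.6 and 72.4. In knockout mice 3, 5, 6 and 7 it was 49.3, 69.0, 114.6 and 121.9, and in LPA-treated mice 1, 4 and 5 it was 116.4, 138.1 and 113.1. The knockout values overlapped the control values, whereas all 3 LPA-treated values were above every control value. The mean was 55.4 ± 25.5 FPKM (SD, n = 3) in control mice, 88.7 ± 35.2 (n = 4) in knockout mice and 122.6 ± 13.6 (n = 3) with LPA. The log2 fold changes were 0.72 between knockout and control mice (95% interval -0.22 to 1.66, adjusted p of 0.415 by limma, and a fold change of 0.25 without control mouse 2), 0.56 for LPA against vehicle (adjusted p of 1.0) and 1.28 for LPA-treated against control mice (95% interval 0.27 to 2.28, adjusted p = 0.193), none of which passed.

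The pair was then compared within each library, where library size and scaling cancel. In control mice 2, 4 and 5 the level of Slc28a1 per length was 0.716, 0.959 and 0.888 times that of Slc28a2. The reverse ratio, Slc28a2 over Slc28a1, was 82.4, 82.1, 13.9 and 28.2 in knockout mice 3, 5, 6 and 7 and 250.3, 59.2 and 437.0 in LPA-treated mice 1, 4 and 5. Near-equal levels in every control mouse thus stood against Slc28a1 far below Slc28a2 in each of the 7 mice with the deletion. The pair of libraries with few detected genes had ratios that lay with those of their groups. The log2 of Slc28a1 over Slc28a2 averaged -0.24 ± 0.22 (SD, n = 3) in control mice, -5.34 ± 1.26 (n = 4) in knockout mice and -7.54 ± 1.49 (n = 3) with LPA. The difference between knockout and control mice was -5.10 (two-sided exact permutation p = 0.0571, the smallest that 35 splits allow). Between LPA-treated and control mice it was -7.30 (exact permutation p = 0.1, the smallest that 20 splits allow), and between LPA-treated and vehicle mice -2.21 (exact permutation p = 0.171). Neither design against control mice can reach 0.05. Against Slc28a3, a broadly selective relative, which lay between 2.27 and 6.01 FPKM in all 10 libraries, Slc28a1 showed a difference of -4.84 between knockout and control mice (exact permutation p = 0.0571) and of -6.39 between LPA-treated and control mice (exact permutation p = 0.1). Both ratios hold Slc28a1, which by itself lay lower without overlap against control mice, so they largely restate its values and are no separate support. The 12 ratio tests over 4 ratios were not adjusted for their number, and no adjusted value could pass.

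**Figure D1:**
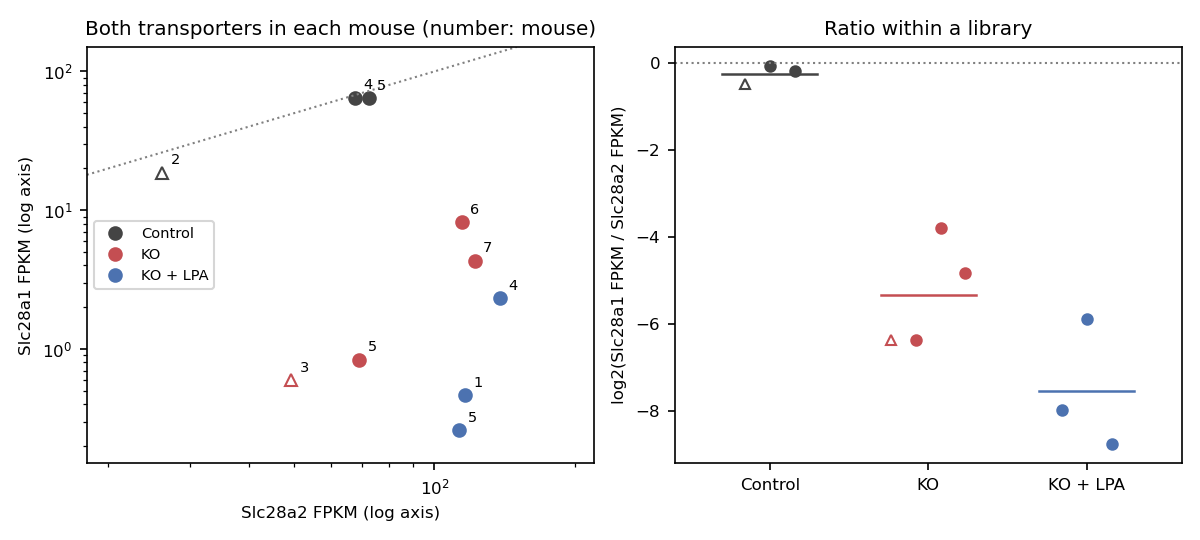
Left, FPKM of Slc28a2 (x axis, log scale) against FPKM of Slc28a1 (y axis, log scale) in each of the 10 mice, with mouse numbers beside the points and a dotted line at equal levels; right, the log2 ratio of the transporters in each mouse, with the group mean as a bar. KO marks knockout mice and open triangles the libraries of control mouse 2 and knockout mouse 3; control mice lie close to the line of equal levels (ratios 0.716 to 0.959) and all 7 mice with the deletion far below it.

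In bulk tissue, fewer cells that carry a transcript and less RNA per cell cannot be told apart, for Slc28a1 as for every gene below. Marker sums are given beside it. The summed FPKM of 11 enterocyte markers such as Vil1, Fabp2 and Sis was 18316 to 25840 in control mice, 10460 to 17055 in knockout mice and 14494 to 29817 with LPA, and 0 of the 11 passed the test in either comparison with control mice. The LPA-treated sums overlapped those of control mice, and Fabp1 alone made 40.8% to 78.1% of the sum in a library. In knockout mice 8 of the 11 had log2 fold changes below 0 and 3 (Hnf4a, Cdx1 and Cdh1) above 0. Cdh1 was higher and Anpep lower without overlap, as were 11% and 6.2% of all genes. The summed FPKM of 16 immune cell markers was 1745 to 3213, 64.1 to 1206 and 185 to 301, and none of the 16 was at 0 reads throughout a group. Of 15 tested, 4 (Cd52, Cd79a, Gzma and Cd7) were lower in knockout than in control mice at an adjusted p under 0.05 by limma. In LPA-treated against control mice 3 (Cd3g, Gzma and Cd7) were lower at that threshold. Of all genes, 0.884% and 0.776% were called lower in these comparisons. Cd74 and H2-Aa, which belong to antigen presentation, made 61.6% to 89.2% of this sum. Of the 15 tested, 14 were below 0 in knockout and 12 in LPA-treated against control mice. Without overlap, 8 lay lower in knockout and 9 in LPA-treated against control mice, where 6.2% and 6.38% of all genes did. The macrophage markers Lyz2 and Cd68 went the other way in LPA-treated mice, with means of 10.7 and 1.96 FPKM against 4.74 and 0.461 in control mice and no overlap. Against vehicle, 4 of the 15 (Cd52, Cd79a, Cd68 and Lyz2) lay higher with LPA without overlap and 0 lower. Of all genes, 3.56% lay higher and 0.604% lower without overlap. Without the libraries of control mouse 2 and knockout mouse 3, 2 (Cd52 and Cd79a) were called lower in knockout mice, as were 375 of the 15729 genes tested. The sum of 10 proliferation markers was 91.3 to 128, 208 to 338 and 156 to 254, with 0 of 10 passing. The part of these cells in the result for Slc28a1 was not tested. Slc28a1 shared no 50-base stretch of its transcript with another gene, and the pseudogene Gm6415 inside it held at most 8 reads.

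Slc28a2 has a near copy. Of the 3862 stretches of 50 bases in its transcript, 38.8% also occur in Gm14085, which lies on chromosome 2 from 122484941 to 122528040, just beyond it. Gm14085 held 0 to 37 reads in 9 libraries and 2679 reads in LPA-treated mouse 1, which made 19.4% of the summed reads of both genes there. The sum of both was 564.8 RPM (reads scaled to library size) in that mouse, against 540.2 and 443.2 in the other LPA-treated mice and 102.0 to 283.1 in control mice, so LPA-treated mice lay above control mice for the sum as well. The split of reads between the copies is uncertain where they share sequence.

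Nt5e (ENSMUSG00000032420, chromosome 9 from 88327197 to 88372092, forward strand) encodes CD73, the surface 5'-nucleotidase that turns AMP into adenosine, and it had the lowest mean level of the 7 genes in control mice. Control mice 2, 4 and 5 had 1.99, 13.2 and 16.6 FPKM, the first of these on 88 reads. The 4 knockout mice in the same order as above had 11.6, 55.7, 29.5 and 23.9, and the LPA-treated mice 18.9, 27.5 and 13.8. The low control value came from a library with few detected genes, and both knockout groups overlapped the control mice through their lowest mouse. The mean was 10.6 ± 7.62 FPKM (SD, n = 3) in control mice, 30.2 ± 18.6 (n = 4) in knockout mice and 20.04 ± 6.90 (n = 3) with LPA. The log2 fold change of knockout against control mice was 1.76 (SE 0.72, unadjusted p = 0.0337, adjusted p of 0.241 by limma), and it was 0.81 without control mouse 2 and 1.199 without both libraries with few detected genes. LPA against vehicle gave -0.43 (95% interval -2.02 to 1.16, adjusted p of 1.0 by limma).

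Enpp3 (ENSMUSG00000019989, chromosome 10 from 24773814 to 24836195, reverse strand) encodes a surface nucleotide pyrophosphatase that hydrolyses ATP and other nucleotides upstream of Nt5e. Its FPKM was 56.8, 195.0 and 166.7 in the control mice. It was 18.2, 95.7, 283.4 and 221.2 in knockout mice 3, 5, 6 and 7, and 131.2, 151.8 and 40.5 in LPA-treated mice 1, 4 and 5. Each group held a mouse far below its others, and the groups overlapped in every comparison. The log2 fold change of knockout against control mice was -0.26 (95% interval -2.24 to 1.71, adjusted p of 0.911 by limma) and turned to 0.57 without knockout mouse 3. Mast cells and basophils also express Enpp3, and the summed FPKM of 8 of their markers ranged from 2.93 to 10.7 in control mice, 1.53 to 27.0 in knockout mice and 5.86 to 91.3 with LPA, where 91.3 was LPA-treated mouse 1 alone and mice 4 and 5 had 5.86 and 7.83, with 0 of 5 tested markers passing in any comparison and 1 of the 8 at 0 reads in all control mice. The part of these cells in the level of Enpp3 was not tested.

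The ratio of Nt5e to Enpp3 within a library did not overlap between control mice and either knockout group. Its log2 was -4.83, -3.89 and -3.33 in control mice 2, 4 and 5. In knockout mice 3, 5, 6 and 7 it was -0.65, -0.78, -3.26 and -3.21, and in LPA-treated mice 1, 4 and 5 it was -2.80, -2.47 and -1.55. Knockout mice 6 and 7 thus lay close to control mouse 5, and mice 3 and 5 far above it. It averaged -4.02 ± 0.76 (SD, n = 3) in control mice, -1.97 ± 1.46 (n = 4) in knockout mice and -2.27 ± 0.65 (n = 3) with LPA. The difference between knockout and control mice was 2.04 (exact permutation p = 0.0571, the smallest possible) and 1.19 without control mouse 2 and knockout mouse 3, and that between LPA-treated and vehicle mice was -0.30 (exact permutation p = 0.743).

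Ada, adenosine deaminase, converts adenosine and deoxyadenosine to inosine and deoxyinosine and was by far the most abundant of the 7. It ranked 67 among the 15729 genes tested by its mean level per length in control mice and took 0.183% to 0.737% of all reads on genes in a library. Ada (ENSMUSG00000017697) lies on chromosome 2 from 163726584 to 163750239 on the reverse strand. Control mice 2, 4 and 5 held it at 1084, 1580 and 1206 FPKM. Knockout mice 3, 5, 6 and 7 held 1303, 1916, 2751 and 3618, and LPA-treated mice 1, 4 and 5 held 3106, 4364 and 1759. Only knockout mouse 3 lay within the control range, and all 3 LPA-treated mice lay above it. The mean was 1290 ± 258 FPKM (SD, n = 3), 2397 ± 1007 (n = 4) and 3076 ± 1302 (n = 3). The log2 fold change was 0.81 in knockout mice (95% interval -0.18 to 1.80, adjusted p of 0.380 by limma) and 1.18 in LPA-treated mice against control mice (95% interval 0.12 to 2.23, adjusted p of 0.254 by limma), so neither passed. Immune cells also express Ada and Nt5e. The immune marker sums given for Slc28a1, made mostly of Cd74 and H2-Aa, ran lower in both knockout groups than in control mice, with Lyz2 and Cd68 higher in LPA-treated mice. In control mice Cd74 lay at 1067 to 2058 FPKM and Ptprc, another marker of that list, at 0.367 to 3.39. The sums thus follow few genes and do not count immune cells. The part of immune cells in the values of Ada and Nt5e was not tested.

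Pnp (ENSMUSG00000021871, chromosome 14), purine nucleoside phosphorylase, splits inosine and guanosine into base and ribose phosphate. The control mice showed 45.1, 92.4 and 89.7 FPKM. Values of 31.1, 81.8, 83.3 and 107.7 were seen in knockout mice 3, 5, 6 and 7, and values of 102.3, 120.7 and 54.8 in LPA-treated mice 1, 4 and 5. The groups overlapped, with means of 75.7 ± 26.6, 76.0 ± 32.2 and 92.6 ± 34.0 FPKM (SD, n = 3, 4 and 3). The log2 fold change between knockout and control mice was -0.06 (95% interval -1.10 to 0.98, adjusted p of 0.966 by limma). It turned to 0.32 without knockout mouse 3. The level of Ada per length, divided by that of Pnp in the same library, was 24.0, 17.1 and 13.5 in control mice 2, 4 and 5. It was 41.9, 23.4, 33.03 and 33.6 in knockout mice 3, 5, 6 and 7, and 30.4, 36.2 and 32.1 in LPA-treated mice 1, 4 and 5. Knockout and control mice overlapped only through knockout mouse 5, just below control mouse 2. The difference of the log2 ratio between knockout and control mice was 0.87 (exact permutation p = 0.114). Without control mouse 2 the groups did not overlap and the difference was 1.09, and without knockout mouse 3 as well it was 0.97. LPA-treated and control mice did not overlap, with a difference of 0.89 (exact permutation p = 0.1, the smallest that 20 splits allow). These ratios depend on how reads were split between Pnp and its copy, described next, which was most uneven in control mouse 2.

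The reading of Pnp depends on its copy Pnp2. Pnp2 lies inside the Pnp interval of the authors' annotation (chromosome 14 from 50955992 to 50964749, within 50944302 to 50965237), the transcripts were 97.2% identical over 1084 aligned columns, and 33.1% of the 50-base stretches of Pnp2 also occur in Pnp. The identifier listed as Pnp carries another symbol, Gm49342, in GENCODE M21, while the transcript compared here is the one named Pnp there. Of the 50-base stretches of that transcript, 23.1% also occur in Gm49342. Pnp2 had 697.5, 150.3 and 134.9 FPKM in control mice 2, 4 and 5, and knockout mice 3, 5, 6 and 7 had 240.6, 77.4, 81.0 and 141.3. LPA-treated mice 1, 4 and 5 had 100.4, 163.0 and 145.4. Pnp took 12.2% of the summed reads of both copies in control mouse 2 and 21.7% in knockout mouse 3, and 44.7% to 69.4% in the other 8 libraries. The pair of libraries with few detected genes was thus set apart in the split between the copies. Their summed reads were 1089.7, 478.1 and 449.0 RPM in control mice, 346.8 to 510.8 in knockout mice and 360.8 to 578.6 with LPA, so control mouse 2 stood above all other libraries.

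**Figure D2:**
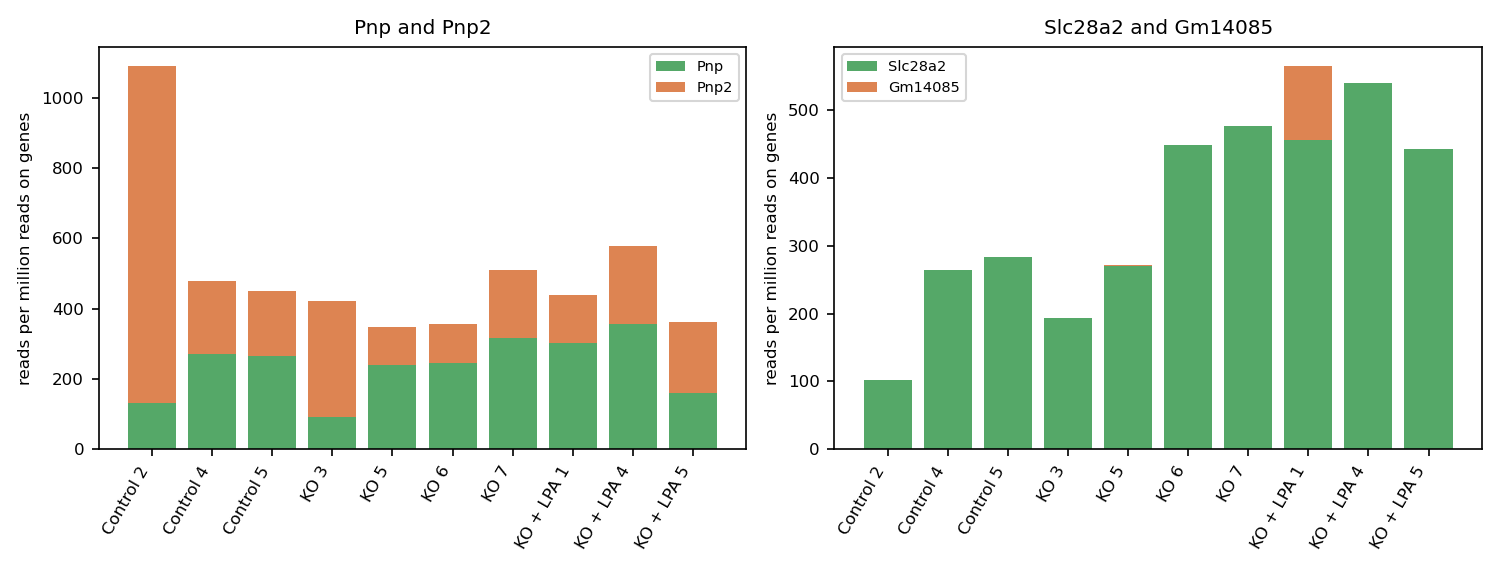
Stacked bars of RPM (reads scaled to the reads on genes of a library) in each of the 10 mice for Pnp and Pnp2 (left) and for Slc28a2 and Gm14085 (right), with KO for knockout mice. Pnp2 took most of the pair's reads in control mouse 2, KO mouse 3 and, by a small margin, LPA-treated mouse 5. Gm14085 was visible only in LPA-treated mouse 1, at 109.5 RPM.

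Xdh (ENSMUSG00000024066, chromosome 17 from 73883908 to 73950182, reverse strand), xanthine oxidoreductase, turns hypoxanthine into xanthine and xanthine into urate. The values were 19.3, 166.1 and 120.6 FPKM in the control mice. They were 2.01, 24.2, 93.8 and 135.1 in knockout mice 3, 5, 6 and 7, and 57.5, 32.5 and 8.15 in LPA-treated mice 1, 4 and 5. The values within a group differed more than the group means, which were 102.0 ± 75.2, 63.8 ± 61.6 and 32.7 ± 24.7 FPKM (SD, n = 3, 4 and 3), and all groups overlapped. The log2 fold change was -1.36 between knockout and control mice (95% interval -4.34 to 1.62, adjusted p of 0.637 by limma), -0.11 without knockout mouse 3, and -2.32 without control mouse 2. Of all 7 genes Xdh had the widest interval, and a change anywhere between its bounds was within its error.

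**Figure D3:**
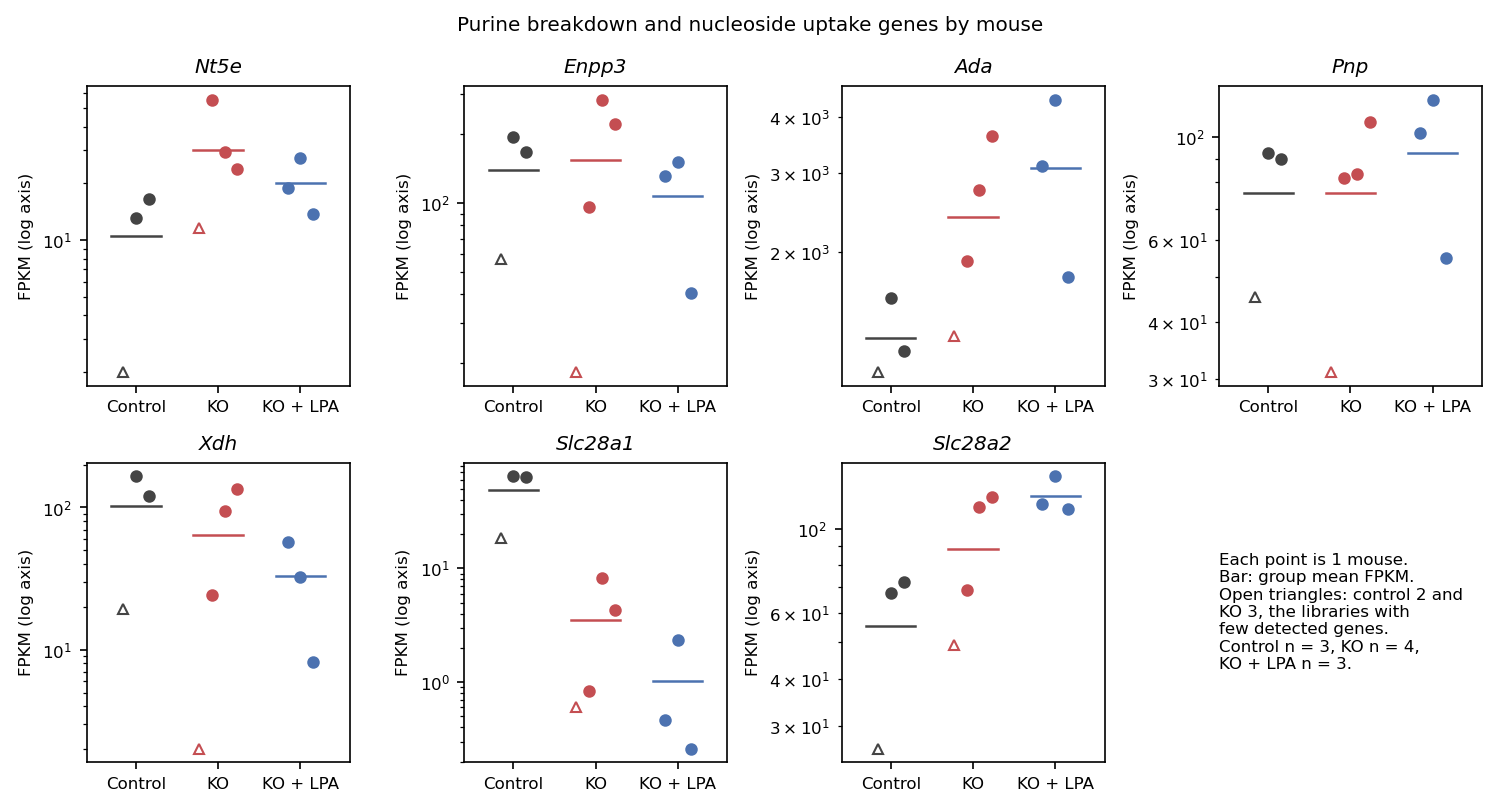
FPKM (log axis) of the 7 genes in each mouse, with 1 point per mouse, a bar at the group mean and open triangles for control mouse 2 and knockout mouse 3; control n = 3, KO (knockout) n = 4, KO + LPA n = 3. In Slc28a1 alone every KO and KO + LPA point lies below every control point, while the KO + LPA points of Ada and Slc28a2 lie above every control point.

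Counted over the 7 genes, 0 passed an adjusted p of 0.05 by limma between knockout and control mice, where 2.01% of the 15729 genes tested passed (1.13% higher and 0.884% lower). An unadjusted p under 0.05 was reached by 2 of the 7, Nt5e and Slc28a1, and by 2764 of all genes. The groups did not overlap for 1 of the 7, Slc28a1, which was lower, and for 17.2% of all genes, 11% higher and 6.2% lower. The median log2 fold change of the 7 was -0.06, with 3 above 0 where 63.4% of all genes were, and the median of all genes was 0.29. Scaling by the median of ratios moved that median to 0.039.

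Between LPA and vehicle 0 of the 7 passed and 0 reached an unadjusted p under 0.05, where limma called 0% of all genes in either direction, 459 reached an unadjusted p under 0.05, edgeR called 0 and DESeq2 called 7, none of them among the 7 described here. The groups overlapped for all 7, and 4.16% of all genes did not overlap (3.56% higher and 0.604% lower). The median was -0.14, with 3 of 7 above 0, against 0.11 and 60.7% for all genes. Between LPA-treated and control mice 1 of the 7 passed, Slc28a1, where 2.32% of all genes did (1.54% higher and 0.776% lower), and 3 of the 7 reached an unadjusted p under 0.05, as did 2582 of all genes. The groups did not overlap for 3 of the 7, Ada and Slc28a2 higher and Slc28a1 lower, against 26.9% of all genes, 20.5% higher and 6.38% lower. The median was 0.28, with 4 of 7 above 0, against 0.41 and 69.5% for all genes. The comparisons share mice, so they are given side by side and not as independent results.

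**Figure D4:**
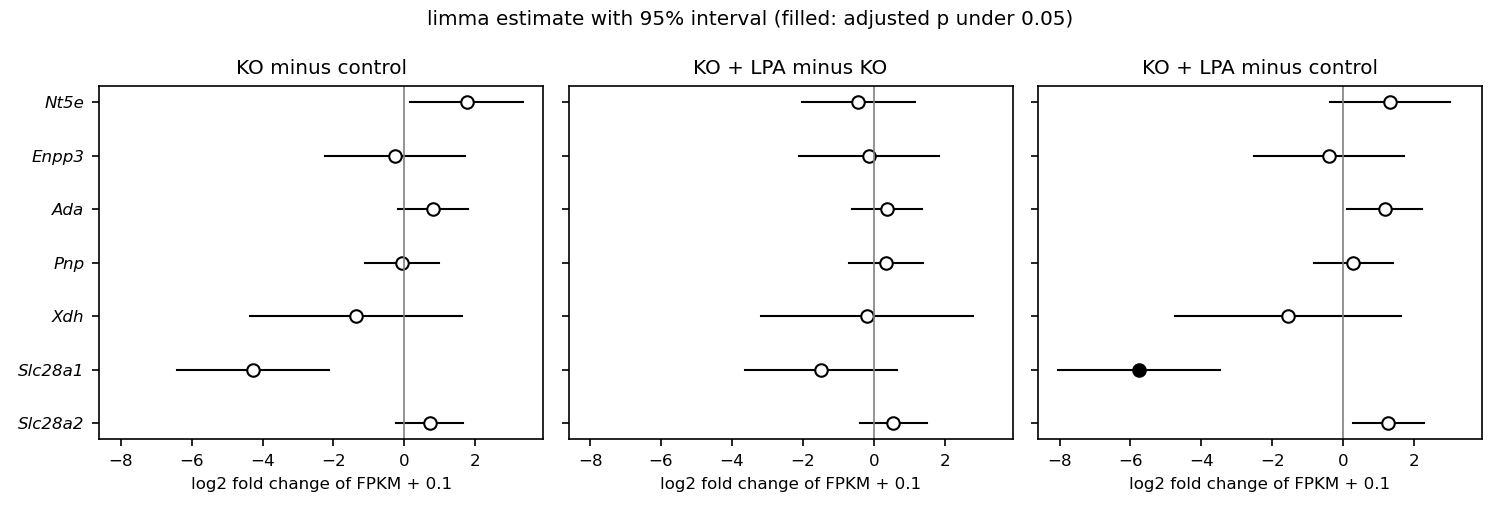
Log2 fold change of FPKM + 0.1 with its 95% interval from the limma model of all 10 libraries, for the 7 genes (rows) in the 3 comparisons (panels); filled points have an adjusted p under 0.05. The intervals of Slc28a1 lie wholly below 0 in both comparisons with control mice and reach -2.14 and -3.48 at their upper ends, and the interval of Xdh is the widest in each panel.

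By level per length the order in control mice was Ada (mean 1290 FPKM), Enpp3 (139.5), Xdh (102.0), Pnp (75.7), Slc28a2 (55.4), Slc28a1 (49.3) and Nt5e (10.6). The ranges of the 5 genes from Enpp3 to Slc28a1 overlapped, while Ada lay above and Nt5e below all of them. In knockout mice the order was Ada (2397), Enpp3 (154.6), Slc28a2 (88.7), Pnp (76.0), Xdh (63.8), Nt5e (30.2) and Slc28a1 (3.50). With LPA it was Ada (3076), Slc28a2 (122.6), Enpp3 (107.8), Pnp (92.6), Xdh (32.7), Nt5e (20.04) and Slc28a1 (1.02). Slc28a1 thus came last in both knockout groups. Its range did not reach that of Nt5e in either of them, but it overlapped that of Xdh in knockout mice through mouse 3.

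Across the 10 libraries Enpp3 and Xdh varied most alike among the 7 genes (Pearson r = 0.95 of log2 values, and 0.98 for deviations from the group means). All 21 pairs had positive correlations of these deviations, between 0.43 and 0.98. Before group means were taken off, only Slc28a1 had negative r values, with Ada (-0.34), Slc28a2 (-0.33) and Nt5e (-0.31). With Enpp3, Xdh and Pnp its r was 0.52, 0.65 and 0.23. The libraries share a depth and a number of detected genes with both genes of a pair, so these are descriptions with no test. Slc28a1 was most like Aspa (r = 0.97), Ace (0.97) and Podn (0.97), of which Ace, the angiotensin-converting enzyme, is a brush border peptidase. Enpp3 was most like E430018J23Rik (0.99), the nucleobase transporter Slc23a4, listed as 2010107G12Rik (0.98), and Kctd21 (0.98). Xdh was most like Marveld3 (0.99), the brush border gene Vil1 (0.98) and Acsf2 (0.98). Ada was most like Endod1 (0.97), Oasl1 (0.95) and Epha2 (0.94), and Nt5e like Gm17024 (0.98), Htatsf1 (0.98) and Gabpa (0.97). The nearest to Slc28a2 were Tpd52 (0.96), Ube2f (0.96) and Sptssb (0.96), and those given for Pnp are Suox (0.98) and Rsph3a (0.98). Without control mouse 2 and knockout mouse 3 these r values ran from 0.88 (Slc28a2 with Sptssb) to 0.99 (Xdh with Marveld3). Those of Nt5e were then 0.90, 0.91 and 0.89.

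The other genes of the pathway were taken from lists of enzymes, transporters and receptors. Of 11 genes that break down nucleotides outside the cell, 9 were tested and 1 rose in knockout mice, Enpp1, which cuts ATP to AMP and pyrophosphate like Enpp3. Control mice held Enpp1 at 1.91, 1.06 and 1.16 FPKM, knockout mice 3, 5, 6 and 7 at 7.28, 10.01, 7.43 and 4.99, and LPA-treated mice at 14.8, 9.17 and 8.32. No mouse with the deletion reached down to a control mouse. Its log2 fold change was 2.35 (SE 0.38, adjusted p of 0.0166 by limma) in knockout and 2.87 (adjusted p of 0.00724 by limma) in LPA-treated against control mice. Leaving out control mouse 4 or 5 or knockout mouse 5 or 6 ended the first call (adjusted p up to 0.0964), as did a fit of the 2 groups alone (0.0742), and no single mouse ended the second. The list's median log2 fold change was 0.78 in knockout mice (0.29 for all genes), and Entpd8, a surface nucleotidase of the intestine, had -0.81 (adjusted p of 0.723 by limma).

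Of 10 nucleotidases inside the cell, 7 were tested and 1 rose in knockout mice, Nt5c3, which dephosphorylates pyrimidine nucleotides. Control mice held 8.31, 12.7 and 11.3 FPKM and knockout mice 3, 5, 6 and 7 held 27.8, 32.3, 23.8 and 21.3, without overlap. Its log2 fold change was 1.28 (adjusted p of 0.0392 by limma), which passed in 1 of 10 fits that left out a mouse and in none of the fits with edgeR, with median-ratio scaling, of the 2 groups alone or without knockout mouse 3 and LPA-treated mouse 1. In LPA-treated against control mice it was 1.47 (adjusted p of 0.0270 by limma), kept in 4 of 10 fits that left out a mouse, and lost with edgeR and with median-ratio scaling. Nt5c2, which acts on IMP and GMP, had 2.21 (adjusted p of 0.0775 by limma) in knockout and 2.77 (adjusted p of 0.0480 by limma) in LPA-treated against control mice, the latter kept in 1 of 10 fits that left out a mouse. The list's median in knockout mice was 0.30, against 0.29 for all genes.

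Of 11 genes for deamination, phosphorolysis and oxidation, 9 were tested and 0 passed in any comparison, with a median of 0.43 in knockout mice (0.29 for all genes). Gda, guanine deaminase, had -0.96 (adjusted p of 0.523 by limma) and Pnp2 an interval of -2.31 to 0.31 (adjusted p of 0.415), and Aox1, aldehyde oxidase, lay under the filter on low values. Of 9 nucleoside and nucleobase transporters, all tested, 0 passed in knockout against control mice and 1, Slc28a1, in LPA-treated against control mice. Slc29a1, the equilibrative transporter ENT1, had 0.981, 2.93 and 2.32 FPKM in control mice, and 5.44, 10.02, 6.40 and 4.90 in knockout mice 3, 5, 6 and 7. The groups did not overlap, with a log2 fold change of 1.71 (adjusted p of 0.0735 by limma). Slc28a3 had 0.46 (adjusted p of 0.631 by limma).

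The remaining lists held 0 called genes in all 3 comparisons with all 10 libraries. Of 13 purine synthesis genes, from Prps1 at the first step to Gmps and Adsl, which make GMP and AMP, all 13 had log2 fold changes above 0 in knockout mice, with a median of 1.17 (0.89 with median-ratio scaling, again 13 of 13 above 0). Without control mouse 2 and knockout mouse 3 only Impdh1 of this list passed. In that fit 403 of the 15729 genes tested were called higher and 375 lower between knockout and control mice. With all 10 libraries the proliferation markers were also above 0 in 10 of 10, with a median of 1.21. Of all genes, 63.4% were above 0, with a median of 0.29. With LPA against vehicle all 10 proliferation markers were below 0, with a median of -0.46. Of the purine synthesis genes 4 were then above and 9 below 0, with a median of -0.15 (0.11 for all genes). Of 7 pyrimidine breakdown genes, 6 were tested, and all 6 were below 0 in knockout mice with a median of -1.44, among them uridine phosphorylase Upp1 at -1.35 (adjusted p of 0.456) and cytidine deaminase Cda at -0.997 (adjusted p of 0.394). Without control mouse 2 and knockout mouse 3, 3 of the 6 (Cda, Dpyd and Upb1) passed as lower, as did 375 of the 15729 genes tested. The medians were 0.48 for 5 purine salvage genes, -0.79 for 3 tested urate transporters and -0.62 for 8 tested adenosine and nucleotide receptors. With LPA against vehicle, 0 genes of any list passed.

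Of 8 other genes of the upper villus such as Apoa4 and Krt20, 4 were above and 4 below 0 in knockout against control mice with a median of -0.03, and 0 passed in any comparison. Of 8 genes of the villus base 1, Reg1, was lower at an adjusted p under 0.05 by limma in both comparisons with control mice. The median of these 8 genes was 0.38 in knockout mice (0.29 for all genes). The summed FPKM of 11 stromal and endothelial markers was 4.66 to 9.76 in control mice, 3.21 to 6.03 in knockout mice and 6.74 to 15.8 with LPA, with 0 of 9 tested markers passing in any comparison. With LPA against vehicle all 9 were above 0, with a median log2 fold change of 1.44 (0.11 for all genes). Of these, Col3a1 and Vim were higher without overlap, as were 3.56% of all genes.

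**Figure D5:**
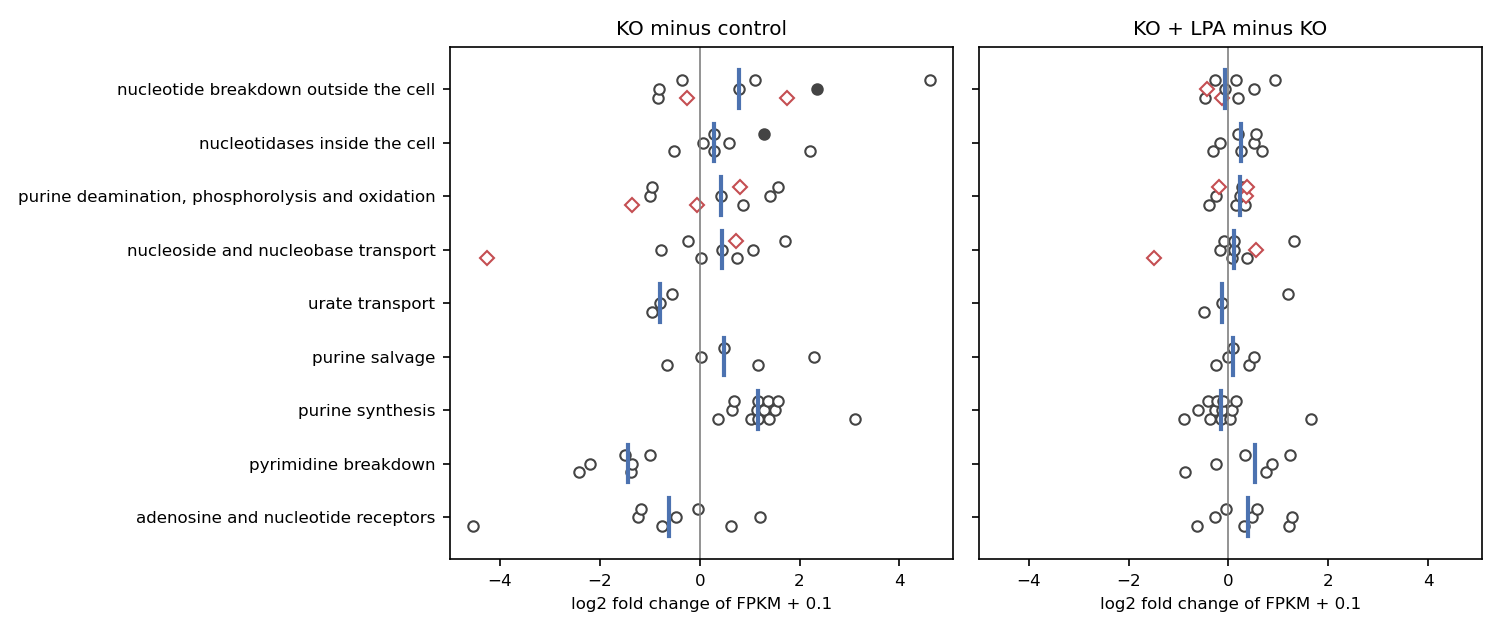
Log2 fold change of FPKM + 0.1 (x axis) for every tested gene of 9 lists of purine and pyrimidine genes (y axis), for knockout (KO) minus control mice on the left and LPA-treated minus vehicle-treated KO mice on the right. Red diamonds are the 7 genes described here, circles the other genes, filled symbols have an adjusted p under 0.05 and blue bars mark list medians, such as 1.17 for purine synthesis and -1.44 for pyrimidine breakdown on the left.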

How the data were processed

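The authors deposited FPKM per gene and mouse, scaled to the reads counted on genes, with gene lengths; their processing notes name STAR 2.5, TopHat, HTSeq 0.6.1, DESeq2 and the builds GRCm38 and mm10, and the strand setting of the counting is not given in the sources used here. They also deposited read counts for a short list of genes beside fold changes and p-values of their own comparisons, and pathway enrichment tables, none of which was used as a result. FPKM times length was a whole multiple of 1 step per library (100% of values within 0.01), which gave back the reads. Of 63 deposited read counts, 63 equalled them.

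Mice were grouped by title, and the 7 genes and all lists were chosen with earlier results of these data known. Genes averaging 0.1 FPKM or more (15729) were kept, and their log2(FPKM + 0.1) was fitted with limma 3.58.1 (R 4.3.3), 1 model of 3 groups, trended variance, two-sided, Benjamini-Hochberg over all genes. Ratios within libraries were not among the tests set beforehand. They were compared by exact permutation (scipy 1.17.1), and leaving libraries out of them was chosen after seeing the data. Alternatives included edgeR 4.0.16 and DESeq2 1.42.0 on the recovered reads, and the fits were tested on simulated data. P-values set a difference between groups against the spread between mice, in which differences between libraries are included. At these depths, 1 read over 1 kb equals 0.0409 to 0.0913 FPKM. Other named genes were those of the purine and pyrimidine lists that passed in any comparison, 8 set family members whatever their values, and the 3 genes with the highest correlation to each member, of which 1 is not reported here. Promoter stretches (RefSeq, GRCm38.p6) covered 250 bases before the start for 6 of the 7 genes. Copies were compared by transcript (GENCODE M21, in which 24919 of 34490 shared identifiers have identical coordinates). Protein alignment was not run.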

Additional observations from a re-analysis of the deposited data

How the results depend on the processing

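Between knockout and control mice the count of the 7 genes called was 0 and became 1 (Slc28a1) with a pseudocount of 1 (log2 fold change -3.66), a mean of at least 1 FPKM (-4.27), median-ratio scaling (-4.56), quantile normalization (-4.44), edgeR (-4.04) and DESeq2 (-4.10). It stayed 0 without the libraries of control mouse 2 and knockout mouse 3 and in every fit that left out 1 mouse (0 to 0), where Slc28a1 ranged from -4.91 to -3.72 with adjusted p by limma between 0.0535 and 0.185. Between LPA-treated and control mice the count of 1 became 0 without knockout mouse 3 and LPA-treated mouse 1 (-5.52, adjusted p 0.0606), a choice made, like that of leaving out control mouse 2 as well (all 3 libraries), after seeing the data, and ranged from 0 to 1 over the fits that left out 1 mouse, where Slc28a1 ranged from -6.57 to -5.19 (adjusted p by limma 0.0198 to 0.101). Between LPA and vehicle it was 0 in every setting.

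The count over all genes between knockout and control mice was 316, and 188 without a filter, 598 with median-ratio scaling, 804 with quantile normalization, 50 with the 2 groups alone, 778 without the 2 libraries with few detected genes, 1830 with DESeq2, 1274 without all 3 libraries that stand apart, and 44 (without control mouse 5) to 403 (without knockout mouse 3) without 1 mouse. Between LPA-treated and control mice it was 365, and 626 with quantile normalization, 190 with the 2 groups alone, 1346, 1489 and 1899 under the same last 3 changes, and 73 (without LPA-treated mouse 5) to 702 (without knockout mouse 3) without 1 mouse. Between LPA and vehicle it was 0, with 7 by DESeq2, 197 without all 3 libraries, and 0 to 0 without 1 mouse. Median-ratio scaling moved the median of all genes from 0.29 to 0.039 between knockout and control mice and from 0.41 to 0.10 between LPA-treated and control mice, and the calls from 177 higher and 139 lower to 222 and 376, and from 243 and 122 to 221 and 269 (366 and 438, and 300 and 326, with quantile normalization). The cause of these shifts was not tested.

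With mouse number as a replicate block, 0 genes passed in any comparison, the count of the 7 called was 0, and Slc28a1 had -6.11 between LPA-treated and control mice (adjusted p 0.159). The numbers name different mice. Over the 4 pairs of libraries from different groups that share a number, the correlation of deviations from group means ran from -0.36 to 0.30, and over the 29 other pairs from -0.50 to 0.55, so the number was not taken as a pairing, and the block leaves 1 residual degree of freedom.

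Of the uncalled members, Enpp3, Pnp and Xdh changed sign. Enpp3 between knockout and control mice (-0.26) became 0.011 without the 2 libraries with few genes and without all 3, 0.57 without the 2 against the labelled sex, and ranged from -0.82 to 0.57 without 1 mouse (0.072 without control mouse 4). Pnp (-0.06) became 0.14 with the block and 0.32 without the 2 against the labelled sex, and ranged from -0.40 to 0.32 without 1 mouse. Between LPA and vehicle Pnp (0.34) became -0.039 without the 2 libraries with few genes, -0.30 with the block and -0.15 without the 2 against the labelled sex or all 3, and ranged from -0.039 to 0.68 without 1 mouse, Enpp3 (-0.14) from -0.96 to 0.46 and Xdh (-0.19) from -1.44 to 0.61. Between LPA-treated and control mice Pnp (0.28) became -0.088 with median-ratio scaling, -0.052 without the 2 libraries with few genes, -0.16 with the block or without all 3 and -0.022 with DESeq2, and ranged from -0.052 to 0.62 without 1 mouse, and Enpp3 (-0.40) from -0.95 to 0.20. The other 4 members kept their sign under every setting. Depth limits Slc28a1 most, at 10 to 117 reads with LPA.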

Other observations

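The receptor gene Adora2b, a low-affinity adenosine receptor of the epithelium, was singled out after its values were seen. Its FPKM was 7.21, 9.86 and 13.2 in control mice 2, 4 and 5. It was 0, 0.0629, 0.981 and 1.73 in knockout mice 3, 5, 6 and 7, and 1.31, 0.627 and 0.0407 in LPA-treated mice 1, 4 and 5. Every mouse with the deletion lay below every control mouse. On the log2 scale the change was -4.54 (SE 1.09, adjusted p of 0.0618 by limma) in knockout and -4.24 (adjusted p of 0.0932 by limma) in LPA-treated against control mice, so neither passed, though both did with DESeq2 and with a pseudocount of 1.

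Gm14085, the copy of Slc28a2, was the only gene of LPA-treated mouse 1 above 20 RPM and more than 20 times its level in every other library. LPA-treated mouse 4 held 2 such genes, Gm15920 and Rps2-ps13, and the other 8 libraries held 0. This comparison was made after the values were seen. LPA-treated mouse 1 is also 1 of the 2 libraries with Xist and without Y-linked reads, and a link between these values was not tested.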
